A study of Danio rerio with 4 samples.

Results

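The genes described here encode proteins of the spliceosome and the RNA-binding proteins that act with it, measured in uhrf1 mutant and wildtype zebrafish larvae at 120 hours post fertilization. Members were taken by a rule on gene names, which uses no measured value, although the rule itself was chosen with earlier results of these data known. They are all probe sets with exactly 1 annotated gene symbol starting with srsf, snrp, sf3, prpf, hnrnp, u2af, lsm and a digit, puf60, ddx39, ddx46, srrm, sart or tra2. This gave 115 of the 15502 probe sets tested, which represent 88 of 8793 genes. There were 2 mutant arrays (replicates 1 and 2) and 2 wildtype arrays (replicates 1 and 3), made from total RNA of larvae with biotin as the label. The growth protocol names carriers of the uhrf1 hi272 allele as parents for most experiments of the study, and also a transgene in which the fabp10 promoter, active in hepatocytes, drives human UHRF1 fused to GFP. The labels call the samples only mutant and wildtype. They tie neither allele nor transgene to an array, and they do not say whether wildtype larvae were siblings of the mutants or whether larvae were pooled for a sample. For the age, one label has 120 days in place of 120 hours, and hours were taken here since the samples are called larvae. Separate clutches or cultures for the replicates are not stated. The p-values therefore cover the spread among these 4 samples alone, and part of it may be technical.

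The spliceosome removes introns from precursor mRNA. It is built anew on each intron from small nuclear ribonucleoproteins (snRNPs), each a short RNA with a ring of Sm or LSm proteins and its own partner proteins. U1 marks the 5′ splice site, U2AF and the SF3 complexes place U2 near the 3′ splice site, and the tri-snRNP of U4, U6 and U5 then joins. SR proteins bind exons and mostly favour their inclusion, while hnRNP proteins coat the transcript and often oppose it. Most of these genes are used by every cell type. In whole larvae, fewer cells of a type and less RNA per cell cannot be told apart.

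Values are RMA intensities, a background-corrected, quantile-normalized brightness per probe set with no fixed unit, and levels of different probe sets are not compared. The 4 arrays had median intensities of 29.4 to 31.5. Across probe sets, log2 values correlated with a Pearson r of 0.987 within mutants, 0.989 within wildtype larvae and at least 0.969 for a mutant with a wildtype array. The brighter uhrf1 probe set read 41.1 and 26.3 on the mutant arrays and 47.4 and 41.5 on the wildtype arrays, with a log2 change of -0.42 ± 0.23 (SE) and a limma adjusted p of 0.56. The 18 hybridisation controls are foreign transcripts added at hybridisation, and so give no measure of RNA per larva. They were lower on the mutant arrays by a mean log2 difference of -0.49, in a range of -0.83 to -0.06. All changes given here are thus set against the array's own middle, and with arrays scaled on these controls the median log2 change of all genes moved to 0.43 from -0.06 as deposited. The log2 ratio of the 3′ to the 5′ probe set of gapdh, a sign of RNA integrity, was 0.97 and 0.64 on the mutant arrays and 1.30 and 0.79 on the wildtype arrays. That of acta1 was 4.74 and 3.98 on the mutant arrays and 5.27 and 4.50 on the wildtype arrays.

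No splicing factor gene passed the test between mutant and wildtype larvae. By limma on log2(intensity + 1), with Benjamini-Hochberg adjustment over all probe sets and a call at an adjusted p under 0.05, 0 of the 115 member probe sets were called, against 1.50% of all probe sets. Each gene was represented by the probe set of highest mean intensity, and 0 of the 88 genes were called, against 2.00% of all genes. Of the 88 member genes 5 had an unadjusted limma p under 0.05 (3 higher and 2 lower), where 14.7% of all genes did. A linear model without limma's moderation of variances called 0 member genes, but it called 0 of all 8793 genes too. The smallest adjusted p of any member probe set in the limma fit was 0.18. With 2 arrays against 2 an exact two-sided permutation test of a single gene cannot go below 0.333.

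The changes of the 88 genes lay close around the middle of the array. Their median log2 change was -0.06, with quartiles at -0.16 and 0.05, and the median over all 8793 genes was also -0.06, with quartiles at -0.21 and 0.09. There were 30 member genes above 0 and 58 below, against 3401 and 5392 of all genes, and 41 and 47 member genes after each array was centred on its median. A log2 change beyond 0.5 in either direction was seen in 1 member gene, sart3, and in 10.7% of all genes. Counted by probe set, it was seen in 2 of 115 members and in 8.75% of all probe sets. The other was a probe set of hnrnpa0a at -0.80, which only narrowly missed being the brightest of its gene. Its mean intensities were 281 in mutants and 481 in wildtype larvae. The probe set that represents hnrnpa0a had means of 375 and 406 and a log2 change of -0.13. The value counted for this gene therefore rests on a small difference in brightness. Both mutant arrays lay above both wildtype arrays in 9 member genes, where 15.2% of all genes did so, and below both in 19, where 29.4% of all genes did so. In the other 60 the groups overlapped.

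A missed threshold does not show that a gene was unchanged, so the limma 95% intervals are given as the range of changes compatible with these arrays. As deposited, the interval lay wholly between -1 and 1, less than a doubling or a halving, in 86 of the 88 genes and in 89.9% of all genes. The exceptions were sart3, whose interval ran from 0.16 to 1.26, and srsf6b, whose interval ran from -0.23 to 1.00. Counted by probe set, the interval lay within these bounds in 112 of 115 members and in 91.3% of all probe sets. The further exception was a probe set of hnrnpa0a that does not represent its gene, with an interval from -1.29 to -0.30. The median standard error of a member gene was 0.16 on the log2 scale. The sign of small changes and the bounds of the intervals also rest on the scaling. With arrays scaled on the hybridisation controls all 88 genes were above 0 and their median was 0.43. Of these 22 were called higher and 0 lower, where 32.9% of all genes were called higher. With that scaling the interval lay wholly between -1 and 1 in 64 of the 88 genes and in 71.9% of all genes.

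**Figure D1:**
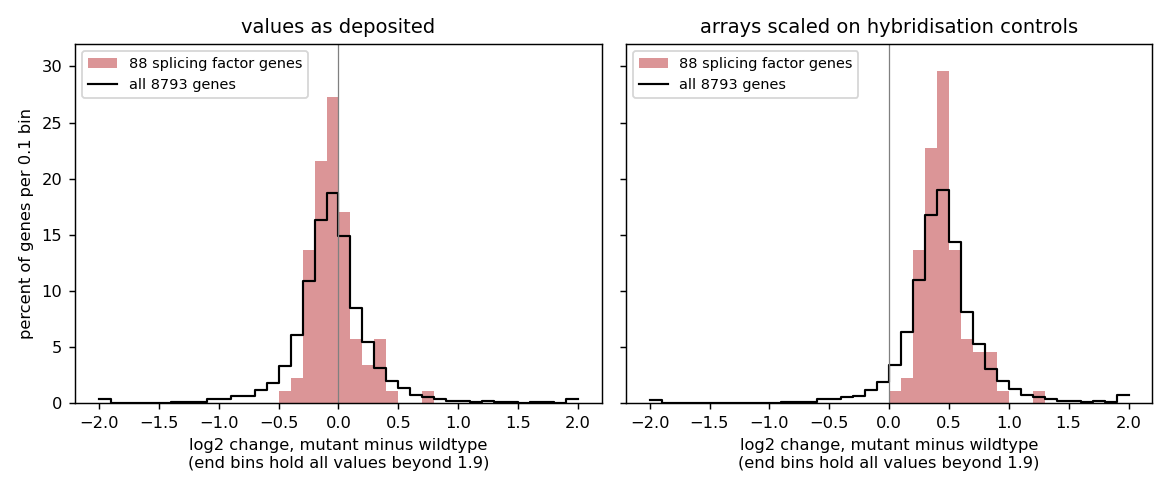
Distribution of log2 changes (mutant minus wildtype) of the 88 splicing factor genes (bars) and of all 8793 genes (line), as percent of genes per bin of 0.1. As deposited both centre at -0.06, and with arrays scaled on the hybridisation controls both centre at 0.43.

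**Figure D2:**
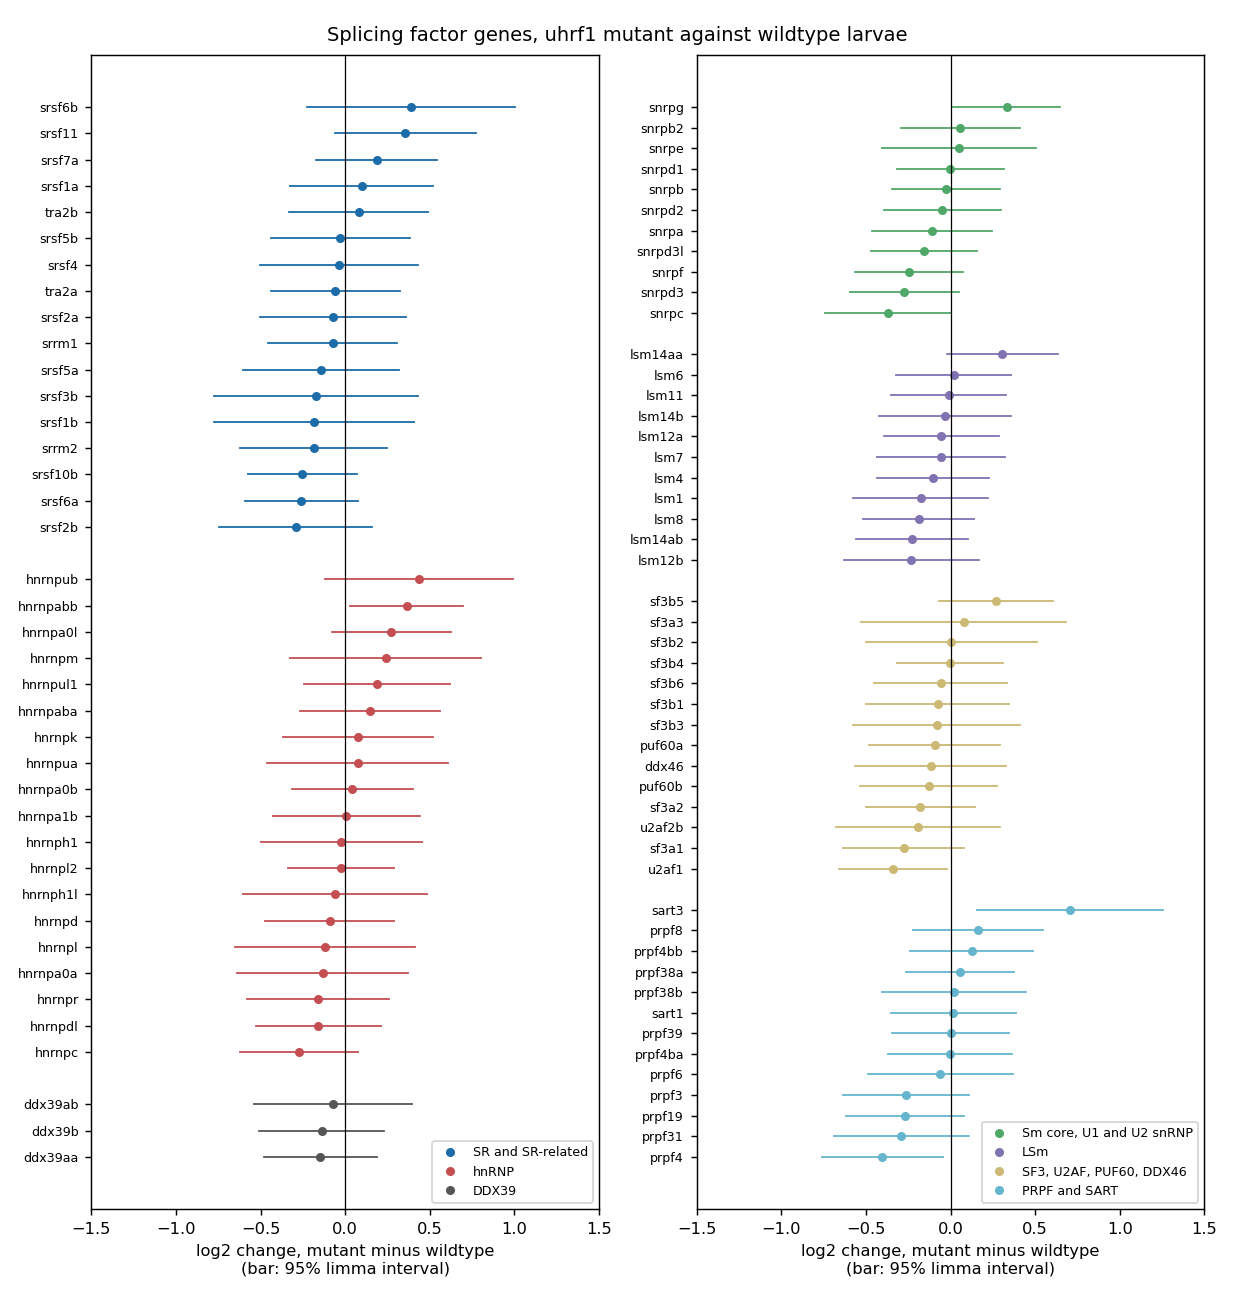
Log2 change (mutant minus wildtype) of each of the 88 genes, on the probe set that represents it, with its 95% limma interval, by role class, 2 arrays per group. In the values as deposited, points lie between -0.40 (prpf4) and 0.71 (sart3), and 86 intervals stay within -1 and 1.

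Sm proteins form the ring around the U1, U2, U4 and U5 RNAs, and snrpa and snrpc belong to U1 and snrpb2 to U2. Of the 11 genes named snrp, 0 were called, 3 lay above 0 and 8 below, and the median log2 change was -0.05. Of all genes 2.00% were called, and 3401 lay above 0 and 5392 below. Both mutant arrays were above both wildtype arrays in 1 of the 11 and below both in 4. Over all genes these shares were 15.2% and 29.4%. The same all-gene values are the background for the classes that follow. The Sm ring gene snrpg read 162 and 155 on the mutant arrays and 125 and 126 on the wildtype arrays, a ratio of means of 1.26 and a log2 change of 0.33 ± 0.13 (SE), with an unadjusted p of 0.042 and an adjusted p of 0.39 by limma. Mutant values were the higher ones without overlap, and replicates were close. Other genes of the same ring lay on the other side: snrpd3 read 78.3 and 83.5 in mutants against 99.7 and 96.1 in wildtype larvae (log2 change -0.27 ± 0.13, SE), and snrpf read 378 and 398 against 456 and 464 (-0.25 ± 0.13, SE). The U1 gene snrpc read 137 and 159 in mutants against 179 and 204 in wildtype larvae, with a log2 change of -0.37 ± 0.15 (SE) and a limma adjusted p of 0.42. In these 3 genes both mutant arrays were the lower ones. The ring genes snrpb and snrpd1 read nearly alike on all arrays, with snrpb at 447 and 469 in mutants and at 453 and 480 in wildtype larvae, and their log2 changes were -0.03 and -0.0013. The genes of this ring, whose proteins assemble in fixed proportion, thus ranged from -0.27 to 0.33 (snrpd3 and snrpg), and none of them passed the test.

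LSm proteins form related rings, of which lsm4, lsm6, lsm7 and lsm8 serve the ring on U6, lsm1 serves mRNA decay in the cytoplasm, lsm11 the U7 snRNP of histone mRNA processing, and the lsm14 proteins translational repression. Of 11 genes 0 were called, and the median log2 change was -0.06. There were 2 genes above 0 and 9 below, against 3401 and 5392 of all genes. The 4 genes of the U6 ring had log2 changes of -0.10 (lsm4), 0.02 (lsm6), -0.06 (lsm7) and -0.19 (lsm8). Of these, lsm7 read 319 and 307 in mutants and 294 and 361 in wildtype larvae, with full overlap. The smallest p in this class was that of lsm14aa, at 13.4 and 13.3 in mutants and 10.1 and 11.2 in wildtype larvae, with a log2 change of 0.30 ± 0.13 (SE) and a limma adjusted p of 0.45. Its mean lies under 12.7, the bound of the dimmest 25% of probe sets, as do those of lsm11 and snrpd2, and the remaining 85 member genes lie above it. The genes lsm14ab (194 and 194 in mutants, 239 and 215 in wildtype larvae) and lsm12b (232 and 200 in mutants, 279 and 229.7 in wildtype larvae) had log2 changes of -0.23 ± 0.14 and -0.23 ± 0.16 (SE), and that of lsm12b was -0.12 with mutant replicate 2 left out, -0.09 with wildtype replicate 1 left out and -0.37 with wildtype replicate 3 left out.

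The SF3 complexes, U2AF, PUF60 and the helicase DDX46 bring U2 to the branch point. Of their 14 genes 0 were called, and the median log2 change was -0.09. There were 3 genes above 0 and 11 below, against 3401 and 5392 of all genes. Both mutant arrays were above both wildtype arrays in 1 of the 14 and below both in 3, against 15.2% and 29.4% of all genes. The gene u2af1, whose protein reads the AG at the end of the intron, read 88.4 and 95.2 in mutants against 117 and 116 in wildtype larvae. Both mutant arrays were lower, with a ratio of means of 0.79 and a log2 change of -0.34 ± 0.13 (SE), at an unadjusted p of 0.042 and an adjusted p of 0.39 by limma. Its partner u2af2b, which binds the pyrimidine tract, read 308 and 225 in mutants against 330 and 273 in wildtype larvae and overlapped, with a log2 change of -0.19 ± 0.20 (SE). Among SF3 genes, sf3a1 read 140 and 159 in mutants against 171 and 191 in wildtype larvae (-0.28 ± 0.15, SE, log2), and sf3b5 read 131 and 135 against 104 and 117 (0.27 ± 0.14, SE, log2). These 2 subunits were apart without overlap and in opposite directions. Leaving out mutant replicate 1 gave -0.18 for sf3a1, and leaving out wildtype replicate 1 gave 0.18 for sf3b5. The branch point clamp gene sf3b1 read 347 and 271 in mutants and 302 and 346 in wildtype larvae, and its log2 change was -0.08 ± 0.17 (SE). The gene sf3b4 read 151 and 149.7 in mutants and 151 and 152 in wildtype larvae, with a log2 change of -0.01 ± 0.13 (SE). The helicase gene ddx46 overlapped on the probe set that represents it, with a log2 change of -0.12 ± 0.18 (SE). On its other probe set it read 23 and 24.2 in mutants against 31.0 and 31.7 in wildtype larvae, lower without overlap, with a log2 change of -0.40 ± 0.13 (SE), an unadjusted p of 0.022 and an adjusted p of 0.30 by limma.

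PRPF and SART proteins belong mostly to the tri-snRNP and to the complexes that activate it. Of 13 genes 0 were called, 7 lay above 0 and 6 below, and the median log2 change was 0.00. A slightly dimmer probe set of hnrnpa0a, described below, had the largest log2 change of any member probe set, at -0.80. Among the probe sets that represent a gene, the largest was that of sart3, which reassembles U4 and U6 after each round of splicing. Its probe set read 102 and 66.7 in mutants against 54.2 and 46.2 in wildtype larvae, with a ratio of means of 1.68 and a log2 change of 0.71 ± 0.22 (SE), at an unadjusted p of 0.020 and an adjusted p of 0.28 by limma. Both mutant arrays were higher, replicate 1 more so, and leaving out mutant replicate 1 gave a log2 change of 0.41, and leaving out replicate 2 one of 1.01. The gene prpf4, of a U4/U6 protein, read 71.0 and 69.7 in mutants against 102 and 85.6 in wildtype larvae. Both mutant arrays were the lower ones, with a ratio of means of 0.75 and a log2 change of -0.40 ± 0.15 (SE), at an unadjusted p of 0.033 and an adjusted p of 0.35 by limma. The ubiquitin ligase gene prpf19 read 255 and 294 in mutants against 320 and 340 in wildtype larvae, and its log2 change was -0.27 ± 0.14 (SE), or -0.16 with mutant replicate 1 left out. The U5 scaffold gene prpf8 read 224 and 184 in mutants and 172 and 190 in wildtype larvae, overlapping, with a log2 change of 0.16 ± 0.16 (SE).

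Among SR and SR-related proteins, which hold a domain rich in arginine and serine, 0 of 17 genes were called. The median log2 change was -0.07, with 5 genes above 0 and 12 below, against 3401 and 5392 of all genes. The gene srsf11 read 370 and 282 in mutants against 258 and 247 in wildtype larvae, higher without overlap, with a log2 change of 0.36 ± 0.17 (SE) and a limma adjusted p of 0.50. Leaving out mutant replicate 1 brought the log2 change to 0.16, and leaving out mutant replicate 2 to 0.55. The genes srsf10b (80.5 and 75.5 in mutants, 92.1 and 94.1 in wildtype larvae) and srsf6a (250.1 and 268 in mutants, 324 and 297 in wildtype larvae) were lower without overlap. Their log2 changes were -0.25 ± 0.13 and -0.26 ± 0.14 (SE). The gene srsf5a read 354 and 494 in mutants and 454 and 469 in wildtype larvae, so that the spread between the mutant arrays exceeded the difference between groups. The wide interval of srsf6b came from mutant arrays at 274 and 163, beside wildtype arrays at 158 and 165. Its log2 change of 0.39 ± 0.25 (SE) became 0.01 when mutant replicate 1 was left out and 0.76 when replicate 2 was. The matrix proteins srrm1 and srrm2 had log2 changes of -0.07 ± 0.16 and -0.19 ± 0.18 (SE).

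Of 19 hnRNP genes 0 were called, 10 lay above 0 and 9 below, and the median log2 change was 0.01. The gene hnrnpabb, of the A/B family, read 743 and 686 in mutants against 579 and 532 in wildtype larvae. Mutant values were higher without overlap, with a ratio of means of 1.29 and a log2 change of 0.36 ± 0.14 (SE), at an unadjusted p of 0.038 and an adjusted p of 0.37 by limma. The matrix attachment gene hnrnpub read 114 and 73.5 in mutants against 72.0 and 62.8 in wildtype larvae (0.44 ± 0.23, SE, log2). This log2 change was 0.13 with mutant replicate 1 left out, 0.75 with mutant replicate 2 left out and 0.26 when its probe sets were averaged. The gene hnrnpc, whose protein binds uridine tracts, read 136 and 129 in mutants against 172 and 149 in wildtype larvae (-0.27 ± 0.14, SE, log2), or -0.17 with wildtype replicate 1 left out. In hnrnpub and hnrnpc the groups also did not overlap, in opposite directions, at a limma adjusted p of 0.54 each. The gene hnrnpa0l read 1650.5 and 1431 in mutants against 1232.5 and 1314 in wildtype larvae, higher without overlap, with a log2 change of 0.27 ± 0.14 (SE), or 0.17 with mutant replicate 1 left out. Its probe set is of a type that can match several related transcripts. The well-known hnrnpa1b and hnrnpk had log2 changes of 0.01 ± 0.18 and 0.08 ± 0.18 (SE).

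The DDX39 helicases load export factors on spliced mRNA. Their 3 genes ddx39aa, ddx39b and ddx39ab had log2 changes of -0.15 ± 0.14, -0.14 ± 0.15 and -0.07 ± 0.19 (SE), and 0 were called. The groups were apart in ddx39aa, at 390 and 416 in mutants against 467 and 425 in wildtype larvae, and overlapped in the other two.

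**Figure D3:**
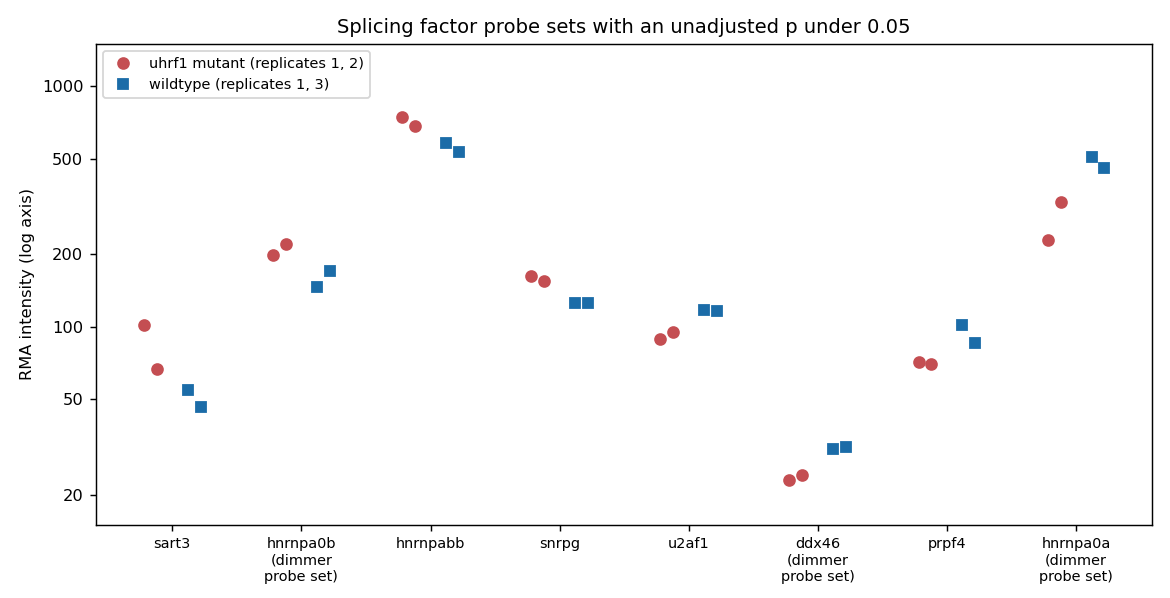
RMA intensity (log axis) on each array for the 8 member probe sets with an unadjusted limma p under 0.05, with mutant arrays left of wildtype arrays in each column. The groups do not overlap in any column, which the choice by p favours. Of all genes, 15.2% have both mutant arrays above both wildtype arrays and 29.4% have both below. The probe sets of sart3 and hnrnpa0a have the widest gaps between mutant replicates.

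Several probe sets carried the same gene symbol in 18 member genes, and in 14 of these all had the same sign, 2 above 0 and 12 below. The 4 with opposite signs were lsm14aa, prpf8, srrm1 and srsf1b, with probe set changes from -0.08 to 0.34, from -0.20 to 0.16, from -0.07 to 0.22 and from -0.18 to 0.09 (log2). The median range between probe sets of a gene was 0.20. The widest range was in hnrnpa0a, an hnRNP of the A family that binds AU-rich mRNA. One of its probe sets read 230.3 and 331 in mutants against 506 and 457 in wildtype larvae, with a log2 change of -0.80 ± 0.20 (SE), an unadjusted p of 0.0074 and an adjusted p of 0.18 by limma. Both mutant arrays were clearly lower on this probe set. The probe set that represents the gene read 443 and 307 in mutants against 377 and 435 in wildtype larvae. It overlapped, with a log2 change of -0.13 ± 0.21 (SE), and the third probe set had a log2 change of -0.13 ± 0.25 (SE). On the first and second of these the mutant replicates stood in opposite order. In the related hnrnpa0b all 4 probe sets lay above 0. The one that represents it read 978 and 825 in mutants against 864 and 881 in wildtype larvae, overlapping, with a log2 change of 0.04 ± 0.15 (SE). Another read 199 and 221 in mutants against 146 and 170.3 in wildtype larvae, higher without overlap, with a log2 change of 0.41 ± 0.15 (SE), an unadjusted p of 0.034 and an adjusted p of 0.36 by limma. The stretch of transcript that each probe set matches was not used here.

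Zebrafish keep many gene copies from a genome duplication, and 14 pairs of member genes had names differing in a final a or b. The names snrpa and snrpb also differ in this way, but they stand for different proteins and were not paired. The pairs prpf38a with prpf38b and tra2a with tra2b are older relatives with counterparts in human. In 8 pairs the changes of both copies had the same sign and in 6 opposite signs, and the median absolute difference in log2 change between copies was 0.18. The largest difference was between srsf6a and srsf6b, at -0.26 ± 0.14 and 0.39 ± 0.25 (SE), a difference of -0.65. This was smaller than the 0.85 by which the log ratio of the copies differed between the mutant arrays. In lsm14aa and lsm14ab, at 0.30 and -0.23, the difference of 0.53 exceeded the replicate differences of that log ratio, 0.01 in mutants and 0.29 in wildtype larvae. The lsm14aa probe set is among the dimmest 25%, and averaging the probe sets of lsm14aa gave a log2 change of 0.19. In hnrnpua and hnrnpub, at 0.07 and 0.44, the difference of -0.36 also exceeded the replicate differences, 0.0047 in mutants and 0.17 in wildtype larvae. Averaging the probe sets of hnrnpub gave 0.26, closer to hnrnpua. In the remaining 12 pairs the difference was smaller than at least 1 of the replicate differences. No test of a difference between copies was run.

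**Figure D4:**
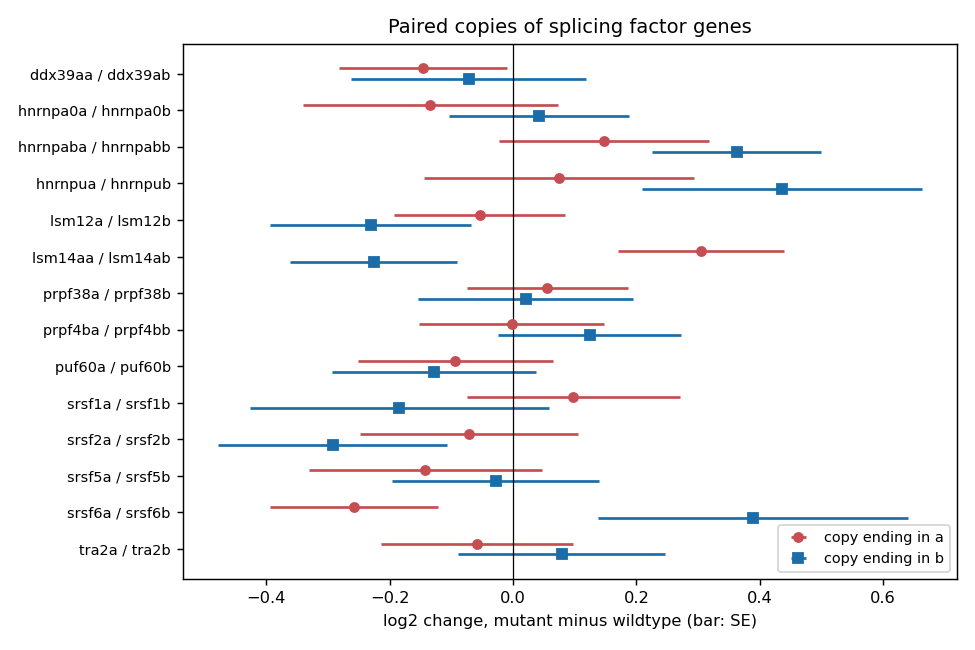
Log2 change (mutant minus wildtype) with its SE for the copies of 14 gene pairs, 2 arrays per group. The copies lie apart most in srsf6a and srsf6b (-0.26 and 0.39) and in lsm14aa and lsm14ab (0.30 and -0.23).

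The spread between replicates was of the size of the differences between groups, in the member genes as over all genes. Over the 88 genes the median absolute log2 difference was 0.19 within mutants and 0.14 within wildtype larvae, and it was 0.16 to 0.25 between a mutant and a wildtype array. Over all genes it was 0.18 within mutants, 0.17 within wildtype larvae and 0.17 to 0.23 between a mutant and a wildtype array. By class, the spread within mutants was 0.29 for SR genes, 0.24 for hnRNP genes, 0.23 for SF3 and U2AF genes and 0.21 for PRPF and SART genes, but 0.09 for Sm genes and 0.06 for LSm genes. Mutant replicate 1 was above mutant replicate 2 in 15 of 19 hnRNP genes, 10 of 14 SF3 and U2AF genes and 9 of 13 PRPF and SART genes. It was so in 7 of 11 LSm genes, 9 of 17 SR genes, 4 of 11 Sm genes and 1 of 3 DDX39 genes, and in 46.1% of all genes. The median of mutant replicate 1 minus 2 was 0.21 for hnRNP genes and -0.07 for Sm genes. Within wildtype larvae the spread was 0.13 for SR genes, 0.20 for hnRNP genes, 0.05 for Sm genes and 0.14 for LSm genes. The median of wildtype replicate 1 minus 3 was 0.05 for hnRNP genes and -0.02 for Sm genes. Wildtype replicate 1 was above replicate 3 in 11 of 19 hnRNP genes and 3 of 11 Sm genes, and in 58.8% of all genes. The 3′ to 5′ ratios of gapdh and acta1 given above differed within both groups, and their part in these differences was not tested.

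**Figure D5:**
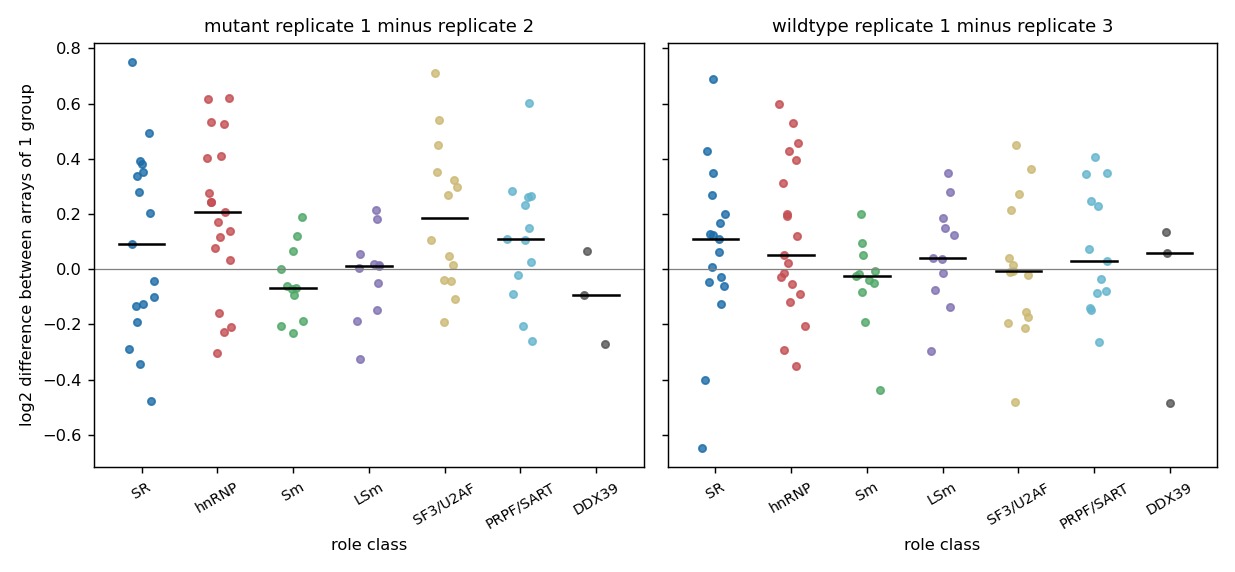
Log2 difference between the arrays of 1 group for each member gene, by role class, with the class median as a bar: mutant replicate 1 minus 2 on the left, wildtype replicate 1 minus 3 on the right. Between the mutant arrays hnRNP genes centre at 0.21 and Sm genes at -0.07.

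Other genes of splicing and mRNA export that the naming rule does not take, such as those of the exon junction complex, the snRNP assembly complex and further splicing regulators, were examined as a list. Of 134 listed genes 101 were measured. Of these 0 were called by limma, where 2.00% of all genes were. An unadjusted limma p under 0.05 was seen in 11 of the 101, and in 14.7% of all genes. The median log2 change of the 101 genes was -0.07, with 34 above 0 and 67 below. Both mutant arrays lay above both wildtype arrays in 13 of them and below both in 26, against 15.2% and 29.4% of all genes. The 5 with the smallest p were syf2, thoc5, elavl1a, gemin4 and ppil3. The spliceosome protein gene syf2 read 112 and 114 in mutants against 175 and 151 in wildtype larvae (-0.52 ± 0.14, SE, log2), and the export complex gene thoc5 read 63.9 and 55.2 against 96.3 and 81.9 (-0.57 ± 0.16, SE, log2). The gene gemin4, of the complex that loads Sm rings on RNA, read 37.5 and 35.0 in mutants against 50.8 and 48.8 in wildtype larvae (-0.45 ± 0.13, SE, log2). On the other side, elavl1a, whose protein stabilises AU-rich mRNA, read 130 and 104 in mutants against 73.9 and 80.4 in wildtype larvae (0.59 ± 0.16, SE, log2). The spliceosomal cyclophilin gene ppil3 read 165 and 116 in mutants against 94.2 and 84.7 in wildtype larvae (0.62 ± 0.20, SE, log2), or 0.37 with mutant replicate 1 left out. Mutant and wildtype arrays did not overlap in any of these 5 genes, which the choice by smallest p favours. The limma adjusted p-values of syf2, thoc5, elavl1a, gemin4 and ppil3 were 0.21, 0.21, 0.21, 0.25 and 0.28.

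Markers of tissues that could change the make-up of whole larvae were examined as lists. Of 12 exocrine pancreas genes 11 fell by limma and 0 rose, with a median log2 change of -3.35. Of 8 hepatocyte genes 2 rose (fgg and fgb) and 1 fell (hpda) by limma. Their log2 changes ran from -1.71 to 1.87, with 4 above 0 and 4 below, so their median of 0.49 describes no typical gene. Of 8 myeloid genes 1 rose, mmp9, and the median was 0.18. None of 16 genes of dividing cells, 11 of neural and retinal progenitors and 8 of muscle was called by limma. Their medians were 0.03, -0.63 and 0.20. An unadjusted limma p under 0.05 was seen in 7, 7 and 1 of them, where 14.7% of all genes had one. All 7 of the neural and retinal progenitors and the 1 of muscle were lower. The genes of dividing cells ran from -0.44 to 0.89, with 8 above 0 and 8 below. The lowest was rrm2b, which was taken for the listed rrm2 through an older symbol. Of the 7 with an unadjusted limma p under 0.05, 6 were higher (mcm2, mcm3, mcm4, mcm5, pcna and cdk1). The 1 that was lower was rrm2b. Those of neural and retinal progenitors ran from -0.87 to -0.21, with 0 above 0 and 11 below. In 8 of these 11 both mutant arrays lay below both wildtype arrays, where only 29.4% of all genes did so. The muscle genes ran from -0.51 to 0.36, with 6 above 0 and 2 below. The part of these tissues in the values of the splicing genes was not tested.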

How the data were processed

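The deposited table holds 1 RMA intensity per probe set and array on a linear scale. The authors made these intensities with RMA, per the submitters' processing notes. The version and options of RMA are not given in the sources used. RMA compresses changes near background, so changes of dim genes are understated. Of 15617 probe sets 115 array controls were left out. A table of GEO's platform annotation gave 1 gene symbol for 10795 of the remaining 15502, several for 135 and none for 4572. Current symbols came from RefSeq by Entrez ID (GRCz12tu) for 10718 of 10802 probe sets with 1 symbol, controls included. The member rule took the same 115 probe sets from the annotated symbols.

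From these, log2(intensity + 1) was computed here, and limma 3.58.1 under R 4.3.3 (lmFit, then eBayes with a single prior variance) was fitted to all 4 arrays with group as the only term. There were 2 residual and 4.04 prior degrees of freedom, and no filter was applied, so all members were tested. Log2 changes are mutant minus wildtype. Ratios are of mean intensities. The fit was run on simulated data, with variances drawn from its own prior and planted changes larger than that of any member. That run checks the code and does not show the power for changes of the size seen here. The members and lists were chosen with earlier results of these data known. Named were any called members, the 3 smallest p and the brightest gene of each role class, genes with opposing probe sets, duplicate pairs, and the 5 smallest p of the list of other splicing genes. Further genes were named, after their values were seen, to account for a class. The number of arrays limits the precision.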

Additional observations from a re-analysis of the deposited data

How the results depend on the processing

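The count of member genes called was 0 under quantile normalization, median centring, the dimmest 25% left out, a robust prior that depends on intensity, a pseudocount of 16, an unmoderated model, averaging over a gene's probe sets, the annotated symbol as given, an adjusted p under 0.1 and without any 1 array, and so was that of the list of other splicing genes. In these limma fits between 0 and 11 member genes had an unadjusted p under 0.05. Scaling on the hybridisation controls was the exception: 22 member genes and 28 of the other splicing genes were called, all higher, and the member median was 0.43, beside 0.43 for all genes. There snrpb and prpf4ba, at -0.03 and -0.0018 as deposited, were called higher at 0.47 and 0.49, and 28 more of the 52 named genes turned above 0 without a call, while 14 kept their sign and passed. Of all genes 176 were called as deposited, 2971 with this scaling, 287 with the robust prior, 290 with averaging, 308 at an adjusted p under 0.1, 66 with the pseudocount of 16, 0 with the unmoderated model and 113 without mutant replicate 1. Elsewhere at most 10 of the 52 named genes changed sign under a setting, none past the threshold. With 1 array left out, where the lone array of a group is assumed to vary like the other group, the member median ranged from -0.09 to -0.03. The role class medians stayed between -0.21 and 0.14 in those fits. No paired analysis was possible because the groups share only replicate number 1.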
